A study of Zea mays and Oryza sativa with 119 samples.

Results

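The 150 rice genes described here were low in the first of 11 consecutive leaf sections, high in section 2, 3 or 4, and lower again in section 8. They were taken from a table of 55986 rice genes, of which 33872 were above 0 in at least 1 library. For each gene the mean of log2(FPKM + 1) over 4 replicates was computed in every section, where FPKM counts fragments scaled by transcript length and by the mapped fragments of the library. Genes were kept if the highest section mean lay in section 2, 3 or 4 and the mean FPKM there was at least 10. The 2390 genes that passed were ranked by the highest mean minus the larger of the means of sections 1 and 8, and the top 150 became the members. The values of sections 1 to 4 and 8 therefore chose the members, and they are given below as a description without a test.

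A grass leaf grows from its base, so cells along the blade form a series of ages. Dividing cells are followed by cells that elongate, lay down their walls and the waxy cuticle of the epidermis, and build chloroplasts, and then by mature photosynthetic cells. Genes whose transcripts rise and fall again between dividing and mature tissue may be used for a limited time on this path. Enzymes that make wax, lignin or cellulose are possible examples.

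Polyadenylated RNA was sequenced from 44 rice libraries, part of a series of 119 samples that also holds 75 maize samples, which were not analysed here. The rice plants were of the cultivar Nipponbare, without a stated treatment or genetic change, and were 14 days old. The third leaf was divided into 11 sections of 2 cm, numbered 1 to 11, with 4 replicates of each section, and each replicate was a pool of, on average, 15 plants. Which end of the leaf carries section 1 is not stated in the labels. On the lists used below, all 10 genes listed for DNA replication and mitosis had their highest mean in section 1. Among them PCNA, the sliding clamp of DNA replication, stood at 0.55 FPKM in section 2, against 14.6 FPKM in section 1. PCNA alone reached 10 FPKM in its highest section, and 2 of the 10 had a mean of at least 1 FPKM over all libraries. All 4 photosynthesis genes were highest in section 7, 8 or 9, and the 3 meristem genes of the KNOX family were listed at 0 in every library. Sections hold mixed cell types, so fewer cells of a type and less RNA per cell cannot be told apart in any value given here.

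FPKM holds no read totals, and the absolute depth is unknown. Relative depth, read from the steps between low values, was 0.66 to 1.62 times the median library, and FPKM summed to between 462278 and 1187130 per library. Over 17353 genes, each library was correlated with the section means of the other replicates. Of the 44 libraries 31 correlated best with their own section, 12 with a neighbouring section and 1 with a section further away. In replicate 1, sections 2 to 7 each matched the next section. In replicate 2, sections 9, 10 and 11 matched sections 10, 11 and 9. For the section 11 library of replicate 2 Pearson's r across genes was 0.940 with section 9 and 0.923 with its own section. The description by section is therefore repeated without replicate 1, the choice of members without each replicate, and the tests of later sections without each replicate and without those 3 libraries of replicate 2; values of single genes are given by replicate.

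Of the members 36 were highest in section 2, 49 in section 3 and 65 in section 4. These are 24%, 32.7% and 43.3% of the members, whereas the genes past both filters had 57.0%, 27.2% and 15.8% in the same sections. The ranking thus took more of its genes from section 4 than the filters alone did. The highest section mean of a member lay between 10.1 and 1823 FPKM, with a median of 35.7 FPKM. It was below 20 FPKM in 41 members, from 20 to below 100 FPKM in 72, from 100 to below 1000 FPKM in 35, and higher in 2. The difference used for ranking ran from 1.78 to 4.54 on the log2 scale, with a median of 2.39. At the threshold the last 3 members had 1.787, 1.787 and 1.781, and the first 3 genes outside had 1.780, 1.772 and 1.768, so the list ends within a continuous series.

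**Figure D1:**
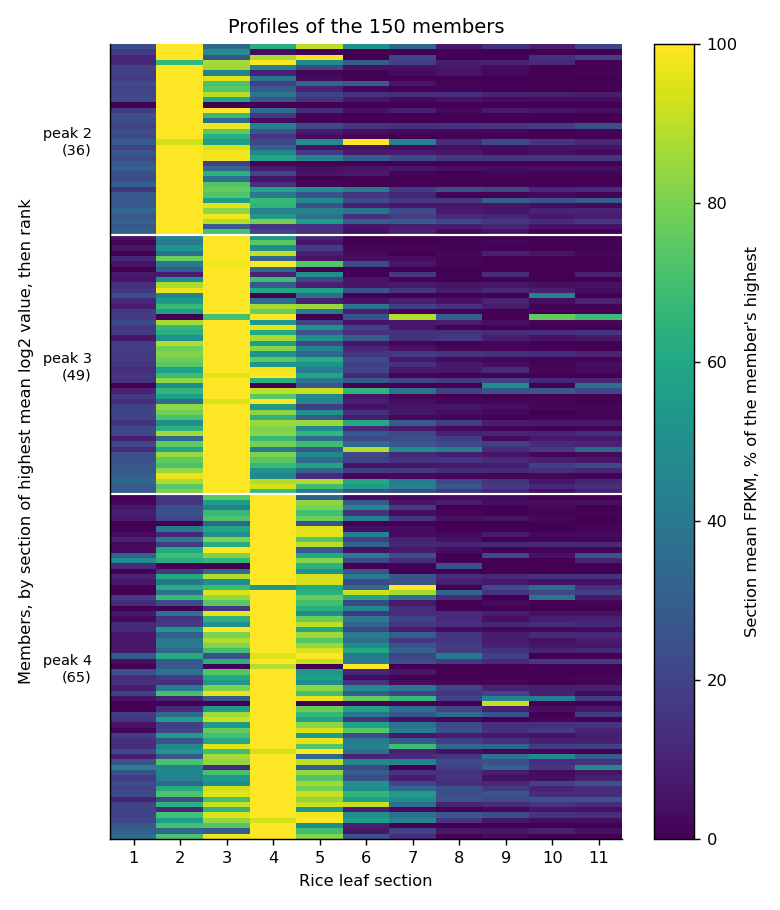
Section mean FPKM of each of the 150 members (rows) in the 11 rice leaf sections (columns), in percent of the member's highest section mean FPKM. Rows are grouped by the section of the highest mean log2 value (36, 49 and 65 members) and ordered by rank within a group; in 12 rows the highest mean FPKM falls in another section than the highest mean log2 value.

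The high levels spanned few sections in most members. The mean FPKM was at least 50% of the highest in 1 section for 14 members, in 2 sections for 41, in 3 for 51 and in 4 for 34, and in 5 to 7 sections for the other 10 members. Together the members held 0.508 ± 0.261% of a library's summed FPKM in section 1, 1.88 ± 0.11% in section 2, 1.97 ± 0.33% in section 3 and 1.36 ± 0.31% in section 4 (SD, n = 4 each). The share was 0.698 ± 0.196% in section 5, 0.114 ± 0.014% in section 8 and 0.0897 ± 0.0101% in section 11. At the far end the members stood at a median of 3.81% of their highest level, and 109 of the 150 were below 10%. Members highest in section 2 kept a median of 1.87% in section 11, those highest in section 3 kept 2.54%, and those highest in section 4 kept 5.62%.

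Replicate 1 was then left out of this description, a repeat chosen after seeing the data. Of the 150 members 27 were highest in section 2, 53 in section 3, 52 in section 4 and 18 in section 5 on the other 3 replicates. Choosing again without replicate 1 gave 37 genes highest in section 2, 64 in section 3 and 49 in section 4, so section 3 and not section 4 then held the most. The share of summed FPKM was 0.407 ± 0.200% in section 1, 1.83 ± 0.08% in section 2, 2.12 ± 0.19% in section 3, 0.796 ± 0.014% in section 5, 0.119 ± 0.013% in section 8 and 0.0941 ± 0.0062% in section 11 (SD, n = 3 each). Levels of at least 50% of the highest spanned 1 section in 16 members, 2 in 43, 3 in 55 and 4 in 26, and the median level in section 11 was 3.59% of the highest.

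The levels on the 2 sides of the high sections were not equal. In 102 members the mean log2 level of section 1 was above that of section 8, and in 39 it was below. Of the members highest in section 2, 34 of 36 had the higher value in section 1. Of those highest in section 4, 31 had the higher value in section 1 and 28 in section 8. In 31 members all 4 libraries of section 11 were listed at 0, against 11 members in section 1. Zeros were also more frequent in section 11 over all genes with a mean of at least 1 FPKM. Single libraries listed 11.0% to 13.0% of these genes at 0 in section 11, against 5.88% to 6.77% in section 1.

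The member with the highest rank was LOC_Os03g26530, which was highest in section 4. It was listed at 0 in section 1 of 3 replicates and had 3.32 FPKM in the other, and its mean was 69.6 FPKM in section 3, 93.5 FPKM in section 4, 29.2 FPKM in section 5 and 2.73 FPKM in section 8. The 4 libraries of section 4 had 38.2, 108, 82.6 and 145 FPKM in replicates 1 to 4, and replicate 1 was higher in section 3, at 87.1 FPKM. All 4 section 4 libraries stood above every library of sections 1 and 8. The rice identifiers are paired with no gene name by the files or the reference table used, so this gene and the other members outside the lists below are given without a role.

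LOC_Os04g28620, the highest-ranked member with its maximum in section 3, had 215, 320, 393 and 320 FPKM there. It averaged 16.6 FPKM in section 1, 135 FPKM in section 2, 312 FPKM in section 3, 170 FPKM in section 4 and 1.09 FPKM in section 8, and was listed at 0 in all 4 libraries of section 10. Replicate 1 was lower than the others in sections 4 and 5, with 29.7 FPKM in section 4, against 165, 244 and 239 FPKM in replicates 2 to 4. LOC_Os04g16728, at rank 8 the highest-ranked member with its maximum in section 2, was uneven, with 117, 27.2, 6.95 and 36.5 FPKM there and 0, 45.0, 0 and 0 FPKM in section 1. Its section 2 libraries therefore did not all lie above those of section 1, and in no replicate was section 2 the highest. Replicate 1 was highest in section 5, at 128 FPKM, and replicate 2 in section 1. Replicate 3 was highest in section 4, at 70.6 FPKM, and replicate 4 in section 7, at 62.8 FPKM. The mean was 46.9 FPKM in section 2 and 42.3 FPKM in section 5.

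LOC_Os08g16260, at rank 23 the next of the members highest in section 2, had 156, 190, 243 and 246 FPKM there. It was listed at 0 in every library of sections 7 to 11. Its section 1 values were uneven, at 95.0, 33.0, 9.46 and 7.72 FPKM, so replicates 1 and 2 were well above replicates 3 and 4.

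That unevenness in section 1 was shared across the members. The median member had 3.31 and 2.81 in section 1 of replicates 1 and 2 on the log2(FPKM + 1) scale, against 1.89 and 2.02 in replicates 3 and 4. It reached its highest value in section 2 in replicate 1, at 4.96, and in section 3 in replicates 2, 3 and 4, at 4.88, 5.05 and 5.08. The centre of mass of a member's FPKM profile, in section numbers, had a median of 3.68 in replicate 1, 4.02 in replicate 2, 4.17 in replicate 3 and 4.13 in replicate 4. In the other genes past both filters it varied less, from 4.65 to 4.67. In the members, replicate 1 thus ran ahead of the other replicates along the section numbers. In replicate 1, 57 members (38%) were highest in section 2, against 44.4% of the other genes past both filters. In replicates 3 and 4, 29 and 19 members (19.3% and 12.7%) were highest in section 5, against 6.16% and 5.71% of the other genes.

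**Figure D2:**
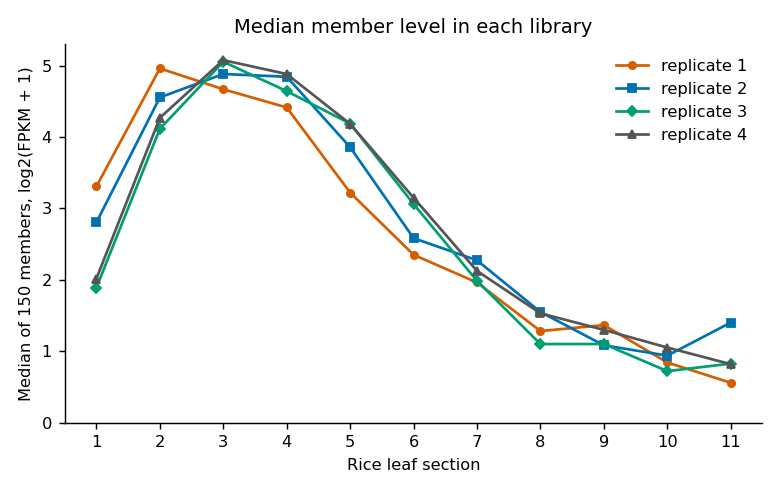
Median log2(FPKM + 1) of the 150 members (y axis) in each of the 11 rice leaf sections (x axis), 1 line per replicate. Replicate 1 has its highest median in section 2, at 4.96, while replicates 2, 3 and 4 have theirs in section 3, between 4.88 and 5.08.

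Within single replicates 136, 138, 114 and 116 of the 150 members had their highest value in sections 2 to 4, in replicates 1 to 4. These are 90.7%, 92%, 76% and 77.3%, against 69.6%, 81.2%, 82.1% and 80.6% of the other genes past both filters, so in replicates 3 and 4 the members' share was the lower one. In 116 members the 4 libraries of the highest section all lay above all 8 libraries of sections 1 and 8, and in 34 they did not. Among all genes past both filters 36.2% had no such overlap, and since the rule used these sections nothing is read from the difference. A 0 stood among the 4 libraries of the highest section in 11 members. In no member did a single library hold over 75% of the sum of those 4.

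The choice was repeated with each replicate left out, and the chosen 150 genes were then read in that replicate. Of these 121, 122, 119 and 116 were members, with replicates 1 to 4 left out. In the replicate left out, 121, 131, 128 and 121 of the 150 chosen genes were higher in the section chosen on the other 3 replicates than in sections 1 and 8. These are 80.7%, 87.3%, 85.3% and 80.7%, against 59.3%, 77.3%, 80.2% and 79.9% of the other genes past the filters. The median difference of the chosen genes was 0.98, 1.84, 2.50 and 2.48 on the log2 scale in the replicate left out, against 2.64, 2.47, 2.31 and 2.35 in the replicates used. In the other genes past the filters the median was 0.12, 0.36, 0.56 and 0.53 in the replicate left out. The median difference of the chosen genes was thus as large in unused replicates 3 and 4 as in those used. It was smaller in replicate 2, and under 1 in replicate 1, whose sections 2 to 7 matched the next section. In replicates 3 and 4 the share of chosen genes that were higher lay close to that of the other genes. These values describe how far the choice repeats and are not a test of it.

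To place the members among known leaf processes, 22 lists of 149 rice identifiers were used. The names in them come from general knowledge of rice and were not checked against an annotation, so each gene is given as listed. Of the 149 genes 45 (30.2%) passed both filters of the rule, compared with 4.27% of all rice genes in the table. Among genes with at least 10 FPKM in their highest section they were 41.3% of 109 listed genes, compared with 23.1% of 10334. Of the 45 listed genes past both filters 5 were members, where 150 of all 2390 genes past both filters were. In 19 of the 22 lists there was no member. The stomatal lineage and KNOX lists held no gene with at least 10 FPKM in its highest section, so they could hold no member. The lists hold 149 of 55986 rice genes, and 145 members lie outside every list. The 5 were 2 wax genes, 1 lignin gene and 2 lipid transfer protein genes.

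Wax and cutin genes make the cuticle, the waterproof layer over the epidermis. Of the 6 listed, 5 passed both filters, all with their highest mean in section 2, and 2 were members. GL1-5 and GL1-6 belong to the GLOSSY1 family, known from maize glossy mutants, whose leaves have altered surface wax. GL1-6 (LOC_Os02g56920) had 74.6, 142, 191 and 228 FPKM in section 2 in replicates 1 to 4, and 86.5, 54.4, 15.0 and 20.5 FPKM in section 1. It averaged 31.6 ± 25.0 FPKM in section 3 and 0.708 ± 0.381 FPKM in section 4 (SD, n = 4). In sections 6 to 11 it was listed at 0 in all libraries except 1. Replicates 2, 3 and 4 were higher in section 2, whereas in replicate 1 section 1 was the higher.

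GL1-5 (LOC_Os09g25850) had 172, 267, 301 and 388 FPKM in section 2, and 178, 97.9, 23.5 and 44.7 FPKM in section 1. It kept a low level beyond these sections, with 11.9 ± 3.3 FPKM in section 8 and 11.2 ± 1.7 FPKM in section 11. The groups of libraries of sections 2 and 1 overlapped in both genes through replicate 1. ONION1, listed as a 3-ketoacyl-CoA synthase that elongates fatty acids, had the same highest section but a smaller difference, with 236 ± 98 FPKM in section 2, against 97.3 ± 44.5 FPKM in section 1, and ranked 291. WSL1, listed as an enzyme of the same kind, stood at 20.7 ± 12.4 FPKM in section 2, against 129 ± 39 FPKM in section 1, its highest.

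Lipid transfer proteins are small secreted proteins that bind lipids. Of 8 listed, 2 passed the filters and both were members with the maximum in section 3, while 5 had their maximum in sections 5 to 11. LOC_Os12g02310 was the most abundant member by FPKM. In section 3 it had 952, 1473, 2594 and 2273 FPKM in replicates 1 to 4, and in section 2 it had 1927, 1640, 1241 and 1247 FPKM. It averaged 367 ± 165 FPKM in section 1, 988 ± 495 FPKM in section 4 and 100 ± 18 FPKM in section 8. In replicates 1 and 2 section 2 was the higher, and in replicates 3 and 4 section 3.

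LOC_Os11g02369 had 294, 337, 215 and 481 FPKM in section 3. It averaged 75.1 ± 58.2 FPKM in section 1, 332 ± 112 FPKM in section 3 and 25.0 ± 18.3 FPKM in section 8. Its level was lower than that of LOC_Os12g02310 in all 12 libraries of sections 2 to 4, by a ratio between 3.23 and 12.1. The sources used here do not say how ambiguous reads were assigned, so values of genes from such a family are uncertain. Other listed lipid transfer protein genes were higher in later sections. LOC_Os12g02320 averaged 231 FPKM in section 8, against 14.2 FPKM in section 3, and LOC_Os11g02389 averaged 136 FPKM in section 8, against 13.6 FPKM in section 3.

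Lignin is the phenolic polymer that stiffens walls of xylem and fibres. Of 26 listed lignin genes 13 passed both filters and 1 was a member, F5H (LOC_Os10g36848), a hydroxylase that leads to syringyl lignin. F5H had 50.6, 53.8, 32.8 and 68.6 FPKM in section 2 and 24.9, 15.3, 3.68 and 7.05 FPKM in section 1, with no overlap between the sections. It averaged 13.2 ± 7.3 FPKM in section 4 and 0.67 ± 0.51 FPKM in section 8. CCR10, listed as a cinnamoyl-CoA reductase, ranked 174 and so lay just outside, with 33.4 ± 17.5 FPKM in section 1, 101 ± 29 FPKM in section 4 and 9.61 ± 3.91 FPKM in section 8.

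**Figure D3:**
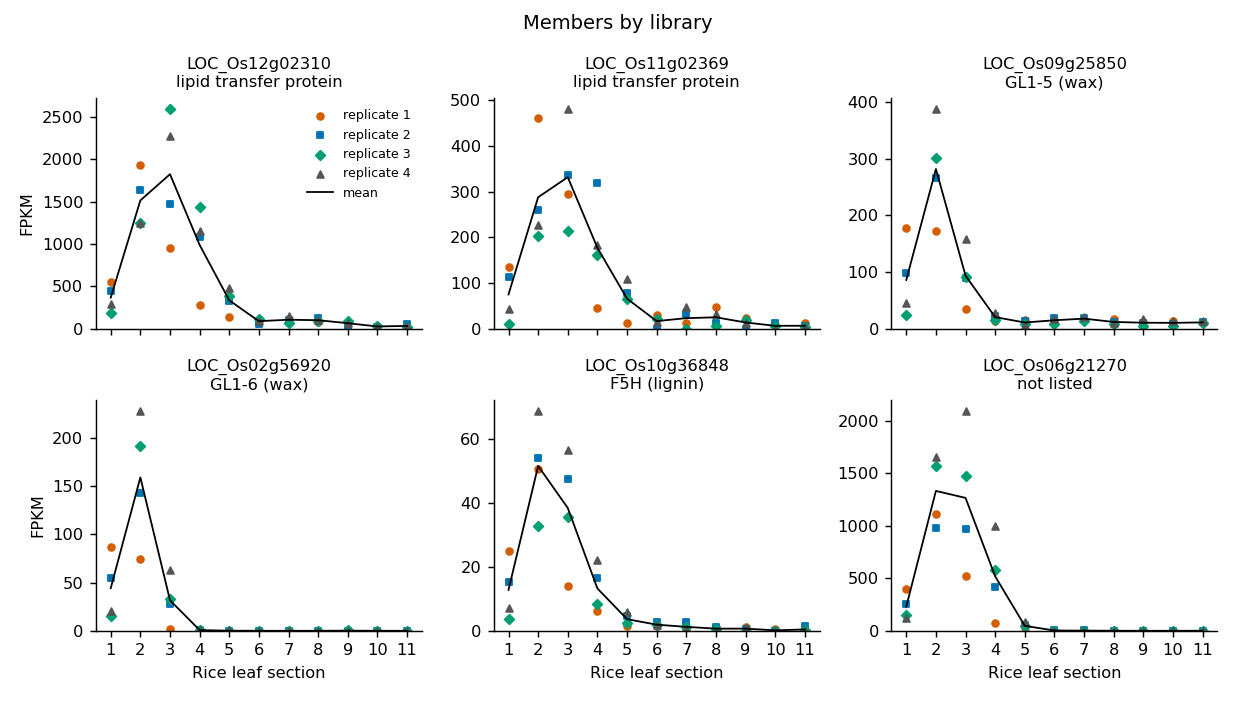
FPKM (y axis, linear, scaled separately in each panel) of 6 members in the 11 rice leaf sections (x axis). Points are single libraries marked by replicate and lines are means over 4 replicates; names are as listed, and the levels in sections 8 to 11 lie far below those of sections 2 and 3 in all 6.

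Genes for cellulose and chlorophyll also passed the filters but did not reach the member list. The 3 cellulose synthases listed for secondary walls, CESA4, CESA7 and CESA9, all had their highest mean in section 2. They ranked between 1502 and 1988, with section 1 nearly as high, as in CESA4 at 120 ± 23 FPKM in section 2, against 90.9 ± 12.1 FPKM in section 1. Of the 5 primary wall cellulose synthases 3 passed, led by CESA3 at rank 358. Of 12 chlorophyll synthesis genes 5 passed and 7 were highest in sections 5 to 11. PORA, a light-dependent protochlorophyllide reductase known from etiolated seedlings, came nearest at rank 237, with 229 ± 59 FPKM in section 1, 622 ± 141 FPKM in section 4 and 27.5 ± 7.3 FPKM in section 8. All 4 carotenoid synthesis genes were highest in sections 5 to 11, and 9 of 11 expansins, which loosen walls during growth, were highest in section 1. None of the 4 stomatal lineage genes reached 10 FPKM in its highest section, so none could pass, and 1 of them was listed at 0 in every library.

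Rice identifiers carry a chromosome number and an order along it, which was used without an annotation. Members lay on all 12 chromosomes, most often on chromosome 1, with 24 members, or 16%, against 13.8% of the genes past both filters. Chromosome 10 held 9.33% of the members and 5.31% of the genes past both filters. With members counted as neighbours when at most 5 identifiers apart, 14 members fell into 6 runs, and in 5 runs all had the same highest section. Over all members 24% were highest in section 2, 32.7% in section 3 and 43.3% in section 4. How often members that are not neighbours share a highest section was not computed, so nothing is read from the 5 runs. A member of the chromosome 10 run had 0, 38.4, 0 and 21.8 FPKM in section 4, its highest section by mean log2 value. Its mean FPKM was higher in section 6. The runs were singled out after their values were seen.

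The longest run lay on chromosome 6, where 4 of 7 consecutive identifiers were members, all highest in section 2. LOC_Os06g21270, the most abundant member by FPKM after LOC_Os12g02310, had 1116, 979, 1573 and 1658 FPKM in section 2 in replicates 1 to 4. It averaged 231 ± 124 FPKM in section 1, 1265 ± 675 FPKM in section 3, 517 ± 385 FPKM in section 4 and 46.8 ± 32.9 FPKM in section 5. LOC_Os06g21250 had 229, 387, 999 and 885 FPKM in section 2, and all its libraries from section 6 onward were listed at 0. In replicate 1 it was higher in section 1, at 269 FPKM. The other 2 members of the run averaged 209 and 131 FPKM in section 2, while the 3 identifiers between them averaged 0.644, 4.08 and 0 FPKM over all sections. The sources used here do not say whether these genes are similar in sequence, so a division of shared reads among them was not tested.

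**Figure D4:**
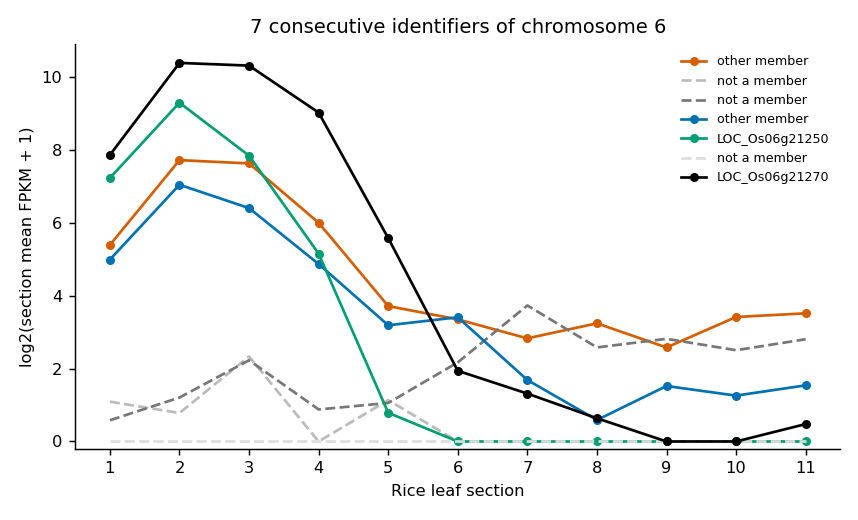
log2(section mean FPKM + 1) (y axis) of 7 consecutive rice identifiers of chromosome 6 in the 11 leaf sections (x axis), with solid lines for the 4 members and dashed lines for the 3 other genes. The 4 members have their highest value in section 2; the other 3 have means of at most 4.03 FPKM in sections 1 to 4.

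A pair of neighbouring identifiers on chromosome 5 was highest in section 4. LOC_Os05g12630 had 203, 299, 246 and 224 FPKM in section 4 and LOC_Os05g12640 had 183, 320, 233 and 188 FPKM there. In section 1 they averaged 22.8 ± 18.9 and 19.4 ± 9.4 FPKM, and in section 8 31.1 ± 13.2 and 47.9 ± 24.9 FPKM. Both were thus among the members that kept a measurable level in the later sections.

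Sections 7, 9 and 11 did not enter the ranking, but the section between 7 and 9 did. All sections were also bounded by the highest section mean. Members were thus chosen to be high before section 7 and low between sections 7 and 9. A fall from section 7 to 9 may follow from this choice, so its test is not independent of the ranking. Section 9 against 7 asks whether the members differed further along the leaf, beyond the high sections. A limma test on log2(FPKM + 1) was fitted to all 17353 genes with a mean of at least 1 FPKM, and a gene was called where the p adjusted by Benjamini-Hochberg was under 0.05 and the log2 change at least 1 in size. All 150 members were tested. In section 9 against 7, 23 members were lower and 0 higher, that is 15.3% lower, where of all genes tested 2.18% were called lower and 1.42% higher. Given how the members were chosen, nothing is read from this difference in share. Whether the members differed from the other genes past both filters was not tested. The median log2 change was -0.51 over the members and 0 over all genes tested, with 117 members negative and 20 positive. Of the members called lower 15 were highest in section 4, 6 in section 3 and 2 in section 2. The groups highest in these sections hold 65, 49 and 36 members. Their median members stood at 5.35, 5.02 and 2.13 FPKM in section 7, so members highest in section 2 had less room to fall. Nothing is read from the split. At an unadjusted p under 0.05 there were 55 members and 3072 of all 17353 genes tested. In 43 members the mean log2(FPKM + 1) of section 7 was below 1, so they could not fall by 1 and could not be called lower.

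LOC_Os06g15910 had the largest fall among the members called with all libraries. It had 0, 0.413, 1.37 and 0 FPKM in section 9, against 1.82, 8.67, 8.73 and 3.46 FPKM in section 7, and the sections did not overlap. The log2 change was -2.12 ± 0.42 (SE, n = 4 per section; limma adjusted p = 0.00138). It was not called when only the 2 sections entered the fit (limma adjusted p = 0.12). LOC_Os04g32850 followed at a higher level, with 54.7, 20.2, 54.7 and 38.5 FPKM in section 9, against 185, 139, 199 and 165 FPKM in section 7. Its change was -2.10 ± 0.46 (limma adjusted p = 0.00436).

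LOC_Os05g12640, from the pair on chromosome 5, had 19.8, 17.3, 26.8 and 24.7 FPKM in section 9, against 54.5, 107, 84.4 and 107 FPKM in section 7. Its change was -1.92 ± 0.39 (limma adjusted p = 0.00181). Its neighbour LOC_Os05g12630 had a change of -1.09 ± 0.43 and did not pass, with a limma adjusted p of 0.146. None of the 5 listed members passed, their changes lying between -0.78 for GL1-5 and 0.13 for GL1-6, which was at or near 0 in both sections.

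The count of members called lower depended on single replicates. It was 25 without replicate 1, 13 without replicate 3, 5 without replicate 4 and 1 without replicate 2, that 1 being LOC_Os05g12640. Of all genes tested 2.61%, 1.55%, 0.968% and 0.766% were lower in the same fits, so without replicate 2 the members' share, 0.667%, was not above that of all genes. With only the 2 sections in the fit, 3 members were lower and 1, LOC_Os01g22570, higher, where 43 of all genes tested (0.248%) were lower and 48 higher. Without only the section 9, 10 and 11 libraries of replicate 2, which matched other sections, 12 members were lower and 0 higher, where of all genes tested 1.49% were lower and 0.939% higher. The median change of the members was -0.49 in that fit, and between -0.70 and -0.46 without each replicate in turn. Of the listed genes tested, members included, 3 of 22 lignin genes were called lower, among them CCR10 at -1.48 ± 0.37 (limma adjusted p = 0.0119), together with 2 of 4 xylan genes and 1 of 3 secondary wall cellulose synthases. Genes called lower were also found among other lists, 2 of 9 expansins, 1 of 13 aquaporins, 1 of 12 chlorophyll synthesis genes, 1 of 6 genes of early chloroplast biogenesis, 1 of 4 brassinosteroid genes and 1 of 7 genes of phloem loading and sucrose. Of 3 iron genes 2 were called higher. Of 6 wax and cutin genes and 7 lipid transfer protein genes none was called, in either direction.

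In section 11 against 9 no member was called in either direction, where of all genes tested 0.0864% were lower and 0.0288% higher. At an unadjusted p under 0.05 there were 14 members and 1836 of all genes tested. The median log2 change of the members was -0.13, with 89 negative and 53 positive, and 0 over all genes tested. In section 9 the median member stood at 1.83 FPKM, and 63 members had a mean log2(FPKM + 1) below 1 there, so 87 could be called lower at all. With the replicate number as a block, which pairs libraries of equal replicate number, 2 members (1.33%) were lower. Of all genes tested 64 (0.369%) were lower and 36 higher in that fit, so 100 genes were called, against 20 without the block. Without the 3 replicate 2 libraries that matched other sections, 4 members were lower and 0 higher, where of all genes tested 1.88% were lower and 0.893% higher.

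The lipid transfer protein gene LOC_Os12g02310 was among these 4. It had 16.6, 60.7, 24.5 and 31.1 FPKM in section 11 in replicates 1 to 4, against 68.0, 28.9, 92.9 and 70.2 FPKM in section 9. Replicate 2 went the other way from the rest. The log2 change was -0.99 ± 0.43 with all libraries (limma adjusted p = 0.374) and -1.67 ± 0.45 without those 3 (limma adjusted p = 0.0305), a fit chosen after seeing the data. Without all of replicate 2 it was -1.67 ± 0.49 and not called (limma adjusted p = 0.0733). LOC_Os09g38239, another of the 4, changed by -1.73 ± 0.36 without those 3 libraries (limma adjusted p = 0.0032). It was also called without all of replicate 2, with the replicate block and with a pseudocount of 0.1. With all libraries in the main fit it was not called. Nor was it called without replicate 1, 3 or 4 (limma adjusted p = 0.309, 0.504 and 0.471) or with only the 2 sections in the fit (limma adjusted p = 0.597).

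**Figure D5:**
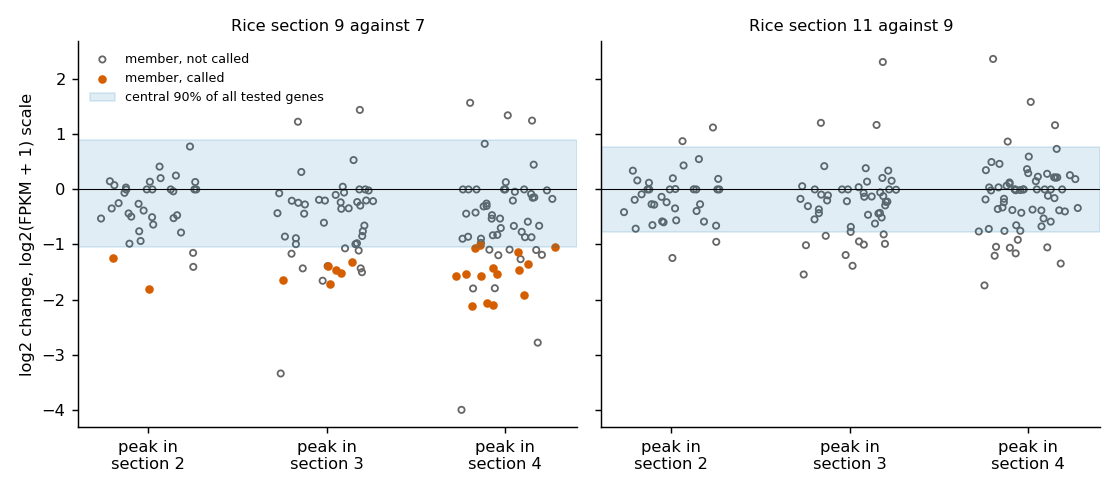
log2 change of each of the 150 members (y axis, on the log2(FPKM + 1) scale) in section 9 against 7 (left) and section 11 against 9 (right), by the section of the highest mean (x axis). Filled points are the 23 members called lower in section 9 against 7, open points are not called, and the band holds the central 90% of all 17353 genes tested.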

How the data were processed

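Per the labels' protocols, libraries keeping strand information were made from TRIzol-extracted RNA. Expression was deposited by the authors as 1 rice table of FPKM values, with 44 value columns, all mapped to labelled samples. TopHat2 2.0.10 and Cuffdiff 2.1.1 were used, per the submitters' processing notes. The rice genome build is not given in the sources used here. The members, lists and tests were chosen with earlier results of these data known. No table used here pairs rice identifiers with names, so list names were written from general knowledge, and few identifiers are printed.

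Genes with a mean of at least 1 FPKM were tested with limma 3.58.1 (R 4.3.3) on the log2(FPKM + 1) scale. All 44 libraries entered 1 fit with section as the factor and a variance trend on mean level. Changes on that scale understate those of genes with low values. On simulated data the test recovered 80% of log2 changes of 1.5 in section 9 against 7 and 78% in section 11 against 9. The simulated noise was independent, without section profiles, replicate pairing or libraries that match other sections, so those were not checked. Named genes were set by rule as the highest-ranked members overall and per highest section, the most abundant members, those at the threshold, all members in a list, and the called members that changed most in each comparison. The chromosome 5 pair, the run on chromosome 6, LOC_Os09g38239, LOC_Os01g22570 and the list genes outside the members were chosen after their values were seen.

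As the leaves of a replicate were cut into sections, equal replicate numbers were taken to mark the same pooled plants. The main fit had no replicate block, so this pairing did not enter its p-values. They measure a spread between replicates that is pooled over all 11 sections and includes the libraries that matched other sections. Deviations from section means correlated at 0.105, 0.0951, 0.218 and 0.194 between sections 9 and 7 of replicates 1 to 4, and at 0.116, -0.014, 0.121 and 0.134 between sections 11 and 9. Only for replicate 2 in sections 11 and 9 was a correlation with another replicate number higher, at 0.0397. Alternatives were the pseudocount, the low-value filter, 2 scalings, a replicate block, leaving out each replicate, a fit to the compared sections alone and, chosen after seeing the data, leaving out sections 9 to 11 of replicate 2 and describing the members without replicate 1. The precision is limited by 4 libraries per section, and the depth of each library is unknown.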

Additional observations from a re-analysis of the deposited data

Results flagged for a closer look

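The share of summed FPKM held by the 150 members in section 5 was 0.405% in replicate 1, far below the other 3 replicates, at 0.785%, 0.811% and 0.791%. This was the single group to stand out among 39 groups of 4 libraries examined for a library far from the rest, and chance flags about 1 in 20 such groups. The section 5 library of replicate 1 correlated better with section 6 of the other replicates, at Pearson's r of 0.931 across 17353 genes, than with section 5, at 0.908.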

How the results depend on the processing

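The top 150 kept 109 to 147 of the members under another pseudocount, minimum level, flanking section or scaling, and 116 to 122 without each replicate. In section 9 against 7, 624 genes and 23 members were called, and with the replicate block 775 and 25. Of all genes tested 2.18% were lower in the main fit and 2.77% with the block, and of the members 15.3% and 16.7%. Without each replicate the counts were 235 to 701 genes and 1 to 25 members lower. With a pseudocount of 0.1, 1 member was higher, LOC_Os01g22570. With only the 2 sections compared in the fit, 91 genes were called, 3 members were lower and 1 higher, again LOC_Os01g22570. Without sections 9 to 11 of replicate 2, 12 members were lower. In section 11 against 9, 20 genes and 0 members were called. The total was 45 with a pseudocount of 0.1, 0 after quantile normalization, 100 with the replicate block, 5 with only the 2 sections, 481 without sections 9 to 11 of replicate 2, and 0 to 347 without each replicate. The 347 came without replicate 2. Members called lower numbered 2 with the pseudocount of 0.1, 2 with the block, 4 without those libraries of replicate 2, and 0 to 1 without each replicate. Of all genes tested 0.196%, 0.369%, 1.88% and 0% to 1.43% were lower in the same fits. The causes were not tested. The 5 called members with the largest falls in section 9 against 7 kept their direction in all 55 repeats and their call in 42. LOC_Os05g12640 kept its call in all 11 of its own.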
